A study of Homo sapiens with 12 samples.

Results

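The 10 genes described here encode secreted inflammatory factors of carcinoma cells and were followed across SCC-15, an established human cell line from an oral squamous cell carcinoma. They are CXCL1, CXCL2, CXCL3, CXCL8, CCL20, IL1A, IL1B, IL6, LIF and CSF2, and each was found as the row of the gene count table whose Ensembl ID carries that symbol. The 10 rows are part of 61044 IDs in the table, and all 10 were among the 17532 genes that passed the filter on low counts. Cells of this line were a negative control (NC) or received 1 of 3 hairpins against FMOD. The hairpins are named shRNA1, shRNA2 and shRNA3 in the titles, and RNA was taken after 48 hours. FMOD encodes fibromodulin, a collagen-binding matrix proteoglycan, and the series was set up to ask what its depletion does to the cells. The 12 libraries, 3 for each of the 4 groups, all come from 1 cell line, and how the hairpins were delivered is not given in the sources used here. The same 3 NC libraries are the control of every hairpin. The labels do not say that the libraries of a group came from separate cultures, so p-values measure only the spread between these libraries.

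FMOD itself had 2, 2 or 3 counts in the NC libraries and 0 counts in all 9 hairpin libraries, and it did not pass the filter. With so few control counts the knockdown could not be measured at this depth. Library totals lay between 17287017 and 19567289 counts. Libraries 1 and 2 of shRNA3 stood apart from library 3 of the same group: across genes, which are not independent replicates, their log2 CPM values correlated with it at Pearson's r of 0.918 and 0.914, while the other pairs within a group reached at least 0.982. Library 3 of shRNA3 correlated at 0.978 to 0.986 with the libraries of shRNA1 and shRNA2. Results of the members with shRNA3 are therefore given with all 3 libraries, without library 3, and with library 3 alone. In the last case the group has 1 library, which is assumed to vary like the libraries of the other groups. Its adjusted p-values then do not rest on replicates of shRNA3. Fold changes of most other genes with shRNA3 are given with all 3 libraries only. Of the squamous epithelial markers, all 9 had over 3 counts in every library and their summed level was 1574 to 2681 CPM (TMM-scaled counts relative to the library total). Within that sum KRT5 (1009 CPM in NC, 21.4, 80.2 and 74.9 CPM with shRNA1, shRNA2 and shRNA3) and CDH1 (323 CPM in NC, 38.2, 53.4 and 66.1 CPM) were lower with each hairpin, and KRT14, KRT6A and KRT17 were higher with each. The leukocyte markers MS4A1 and TYROBP were at 0 in all 12 libraries, and PTPRC was at 0 in the NC libraries. The summed level of the 11 leukocyte markers was 63.9 to 81.2 CPM in NC, 50.3 to 106 CPM with shRNA1, 89.6 to 96.2 CPM with shRNA2 and 121 to 244 CPM with shRNA3. Most of it was CD68, at 63.2 ± 9.16 CPM in NC and 191 ± 71.9 CPM with shRNA3 (SD, n = 3), while CD14 and ITGAM were lower and CSF1R higher with each hairpin. The summed fibroblast markers lay at 56.9 to 59.7 CPM in NC, 15.5 to 21.1 CPM with shRNA1, 44.3 to 48.2 CPM with shRNA2 and 32.8 to 86.6 CPM with shRNA3, and COL1A2, LUM and PDGFRB, 3 of the 4 tested, were lower with each hairpin. The summed endothelial markers lay at 17.8 to 23.4 CPM in NC, 3.88 to 6.04 CPM with shRNA1, 6.87 to 8.46 CPM with shRNA2 and 8.68 to 13.4 CPM with shRNA3, with VWF and CDH5 lower and PECAM1 higher with each hairpin. The part of these markers in the results was not tested.

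Chemokines draw leukocytes along a gradient. CXCL1, CXCL2, CXCL3 and CXCL8 act on neutrophils through the receptors CXCR1 and CXCR2, and CCL20 draws CCR6-bearing lymphocytes and dendritic cells. IL-1α and IL-1β signal through IL1R1 to NF-κB, which is a known activator of the CXC chemokine, CCL20, IL6 and CSF2 genes. IL-6 and LIF act through receptors that share the chain gp130, and CSF2 encodes the myeloid growth factor GM-CSF. Squamous carcinoma cells are known to release many of these factors.

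The 4 CXC chemokine genes lie in a cluster on chromosome 4, and their upstream sequences are shown because CXCL1, CXCL2 and CXCL3 carry the same match to the NF-κB consensus while their RNA levels moved differently. IL6 is shown as a further gene with such a match, CXCL8 for its AP-1 match (TGANTCA), and CSF2 as a gene that rose and has neither. Each run is the 200 bases before the RefSeq transcription start on the coding strand, 5′ to 3′, from GRCh38.p14, with matches to the κB consensus or AP-1 in capitals.
CXCL1 (chr4:73869193-73869392, plus strand): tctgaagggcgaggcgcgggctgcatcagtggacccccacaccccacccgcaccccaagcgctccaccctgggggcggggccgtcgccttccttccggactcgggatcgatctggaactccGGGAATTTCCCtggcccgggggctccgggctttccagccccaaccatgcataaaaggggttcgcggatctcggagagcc
CXCL2 (chr4:74099196-74099395, minus strand): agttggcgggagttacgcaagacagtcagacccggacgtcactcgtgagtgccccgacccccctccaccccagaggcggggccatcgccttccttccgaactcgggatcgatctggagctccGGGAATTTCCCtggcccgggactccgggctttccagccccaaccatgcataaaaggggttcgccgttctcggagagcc
CXCL3 (chr4:74038690-74038889, minus strand): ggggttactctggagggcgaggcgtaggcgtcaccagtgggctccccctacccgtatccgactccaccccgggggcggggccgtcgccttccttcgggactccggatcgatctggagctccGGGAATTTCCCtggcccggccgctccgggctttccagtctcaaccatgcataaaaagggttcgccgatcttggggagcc
CXCL8 (chr4:73740369-73740568, plus strand): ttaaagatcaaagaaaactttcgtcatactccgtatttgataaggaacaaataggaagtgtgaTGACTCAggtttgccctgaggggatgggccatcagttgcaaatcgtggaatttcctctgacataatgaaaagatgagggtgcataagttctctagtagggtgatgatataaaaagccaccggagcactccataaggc
IL6 (chr7:22727000-22727199, plus strand): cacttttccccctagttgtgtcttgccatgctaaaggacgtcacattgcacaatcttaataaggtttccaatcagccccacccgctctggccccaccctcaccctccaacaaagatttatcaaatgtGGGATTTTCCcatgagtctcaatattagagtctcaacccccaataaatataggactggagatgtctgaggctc
CSF2 (chr5:132073589-132073788, plus strand): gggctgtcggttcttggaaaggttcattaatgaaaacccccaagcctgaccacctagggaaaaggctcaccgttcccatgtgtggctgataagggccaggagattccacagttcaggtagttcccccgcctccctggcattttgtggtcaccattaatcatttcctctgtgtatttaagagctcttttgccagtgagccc

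Aligned end to end, the CXCL1 run was 77.7% identical to that of CXCL2 and 80.8% identical to that of CXCL3, and CXCL2 and CXCL3 were 76.9% identical. The CXCL8 run was 41.5% to 43.5% identical to the other three. Searched on both strands of the 250 bases before the start, the κB consensus was found for 5 of the 9 members with a RefSeq window (CXCL1, CXCL2, CXCL3, CCL20 and IL6), beside 9.96% of 35116 RefSeq windows of that length. AP-1 was found for 2 of the 9 (CXCL8 and IL1A), beside 6.57% of the windows, and the TATA box letters (TATAAA) for 3 of the 9 (CXCL8, CCL20 and IL1A), beside 10.7%. Those letters lay at -31 to -26 in CXCL8 and at -29 to -24 in CCL20. In IL1A they lay at -239 to -234, far from the start and for only 1 of its starts. In CXCL1 and CXCL3 the κB matches overlapped each other and covered positions -79 to -69, where -1 is the base before the start, and in CXCL2 they covered -78 to -68. The IL6 match lay at -73 to -64 and the CCL20 match at -79 to -70. A match is a string of letters and not a measured binding site, and the absence of a match says only that the letters are not in the window.

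**Figure D1:**
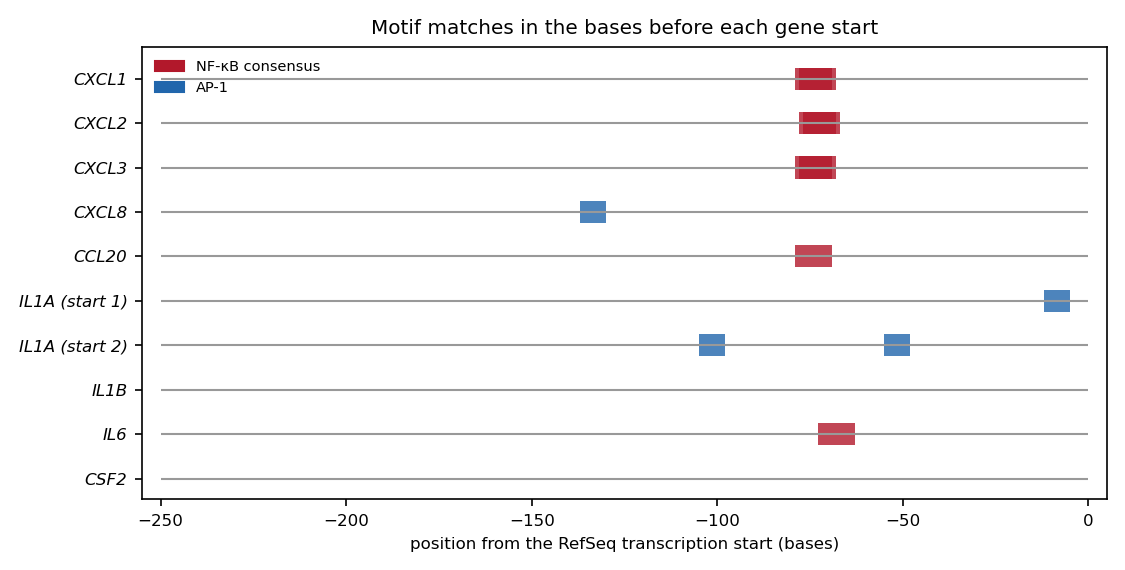
Position of matches to the NF-κB consensus (red) and AP-1 (blue) in the 250 bases before the RefSeq transcription start of 9 members, with IL1A drawn for both of its starts (x axis, bases from the start). The κB matches of CXCL1, CXCL2, CXCL3, CCL20 and IL6 all lie between -79 and -64, and IL1B and CSF2 hold neither motif.

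CXCL1, CXCL8, IL6 and CCL20 were lower with each of the 3 hairpins, and none of the 10 was higher with each of them. Of all tested genes, 19.7% were lower and 16.0% higher with each of the 3 hairpins. The 4 genes were also called lower without library 3 of shRNA3, and their values with library 3 alone, where shRNA3 has no replicate, lay in the same direction. With shRNA1, 4 members were lower (CXCL1, CXCL8, IL6 and CCL20) and 2 were higher (CXCL2 and CSF2), beside 30.6% of all tested genes lower and 26.8% higher. With shRNA2, 6 were lower (CXCL1, CXCL3, CXCL8, IL1A, IL6 and CCL20) and 0 were higher, beside 28.4% lower and 24.6% higher. With shRNA3, 5 were lower (CXCL1, CXCL3, CXCL8, IL6 and CCL20) and 2 were higher (CSF2 and LIF), beside 27.6% lower and 26.4% higher. A gene was called at an adjusted p under 0.05 in edgeR's quasi-likelihood test with Benjamini-Hochberg adjustment over all 17532 genes, and all adjusted p-values below come from that test unless another is named. The median log2 fold change of the 10 members was -0.75 with shRNA1, -1.66 with shRNA2 and -0.95 with shRNA3, beside -0.02, -0.05 and -0.03 over all tested genes. For the mean of the 3 hairpins against NC, 6 members were lower (CXCL1, CXCL3, CXCL8, IL1A, IL6 and CCL20) and 1 was higher (CSF2), beside 32.2% of all tested genes lower and 27.9% higher. In bulk RNA, fewer cells that make a transcript and less of the transcript per cell cannot be told apart.

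**Figure D2:**
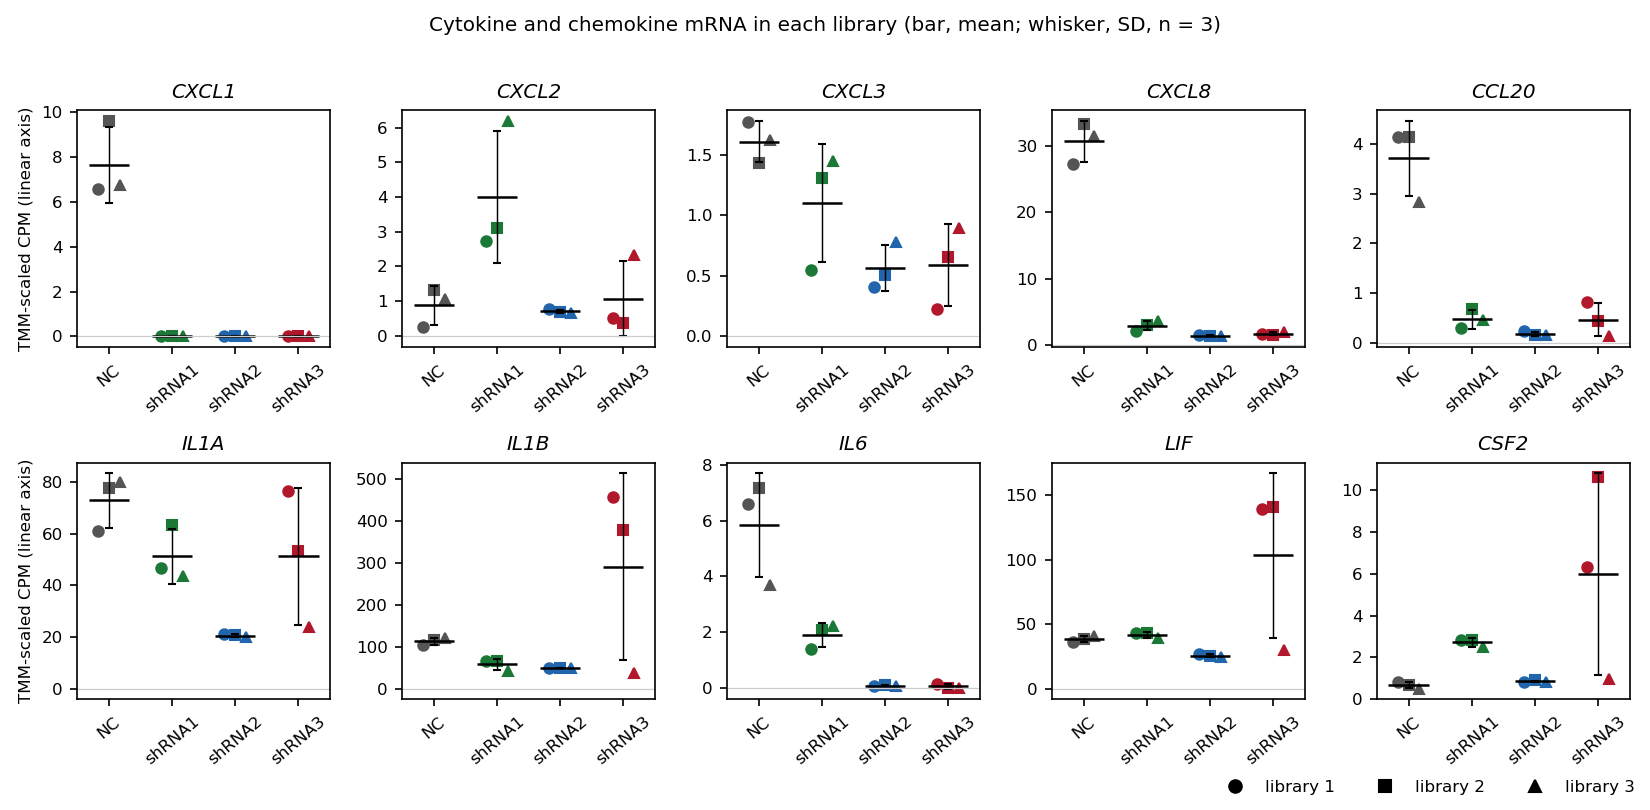
TMM-scaled CPM of each gene (y axis, linear, own scale for each gene) in the 3 libraries of NC, shRNA1, shRNA2 and shRNA3, with the group mean (bar) and SD (whisker). The NC libraries sit above all 9 hairpin libraries for CXCL1, CXCL8, IL6 and CCL20, and libraries 1 and 2 of shRNA3 sit far above library 3 for IL1B, LIF and CSF2.

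**Figure D3:**
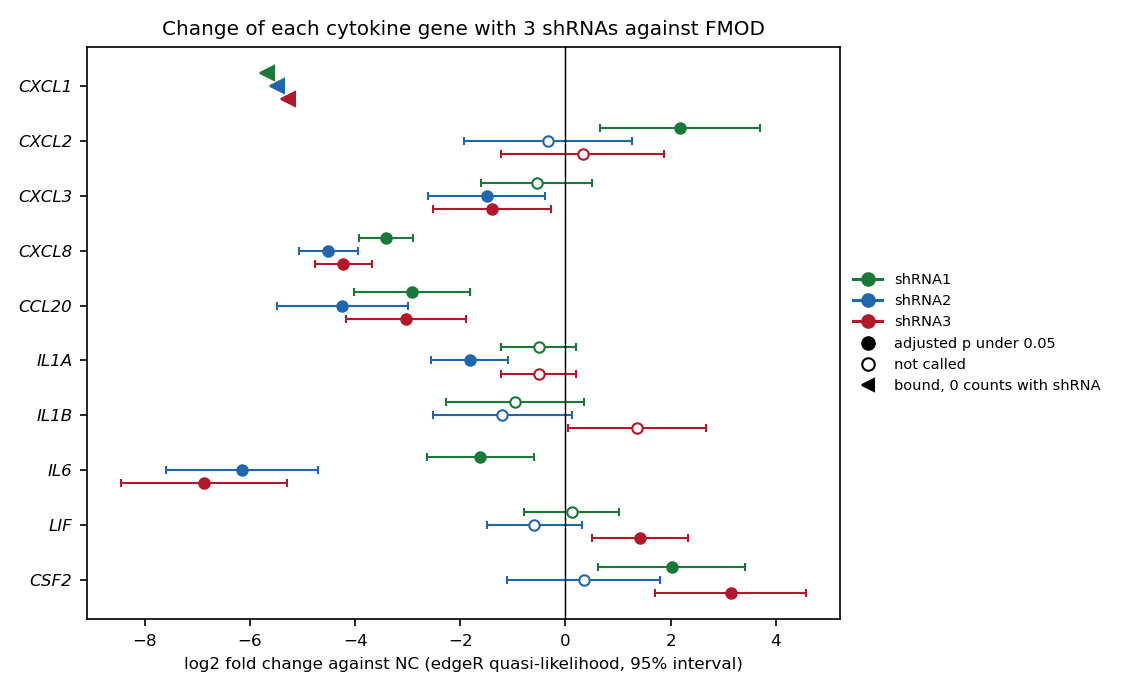
Log2 fold change against NC (x axis) of each gene with each hairpin and its 95% interval from edgeR's quasi-likelihood fit, filled where the adjusted p is under 0.05. The CXCL1 triangles are bounds, since all hairpin libraries had 0 counts, and CXCL8, IL6 and CCL20 lie below 0 with every hairpin.

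CXCL1 (ENSG00000163739, chr4:73869393-73871242, plus strand) went from a clear signal to nothing detected. Its level was 6.56, 9.60 and 6.75 CPM in the NC libraries, from 130 to 195 counts, and 0 counts in all 9 hairpin libraries. All NC libraries were therefore above all hairpin libraries, with or without those of shRNA3 that stand apart. A count of 0 allows up to 3 counts, which is 0.145 to 0.222 CPM in the hairpin libraries. Against that limit CXCL1 was at least 51.0-fold lower with shRNA1, at least 44.8-fold lower with shRNA2 and at least 38.8-fold lower with shRNA3 (adjusted p 0.000125, 0.000145 and 0.000162).

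CXCL8 (ENSG00000169429, chr4:73740506-73743716, plus strand), which encodes interleukin-8, had the highest level per kilobase of exon in NC among the 5 chemokines of the set. It stood at 27.4, 33.4 and 31.5 CPM in NC, 2.14, 3.00 and 3.51 CPM with shRNA1, 1.41, 1.24 and 1.39 CPM with shRNA2, and 1.56, 1.46 and 1.89 CPM with shRNA3. The NC and hairpin libraries did not overlap, and the shRNA1 libraries lay above all libraries of the other hairpins. CXCL8 was 10.6-fold lower with shRNA1 (log2 fold change -3.41, SE 0.24), 22.8-fold lower with shRNA2 (-4.51, SE 0.25) and 18.7-fold lower with shRNA3 (-4.22, SE 0.25), with adjusted p-values of 8.10e-07, 1.94e-07 and 2.81e-07. Its log2 fold change with shRNA3 was -4.35 without library 3 and -3.99 with library 3 alone.

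CXCL2 (ENSG00000081041, chr4:74097035-74099293, minus strand) did not follow CXCL1, although the pair encode close paralogues. It stood at 0.252, 1.33 and 1.07 CPM in NC and at 2.74, 3.10 and 6.19 CPM with shRNA1, so all shRNA1 libraries were above all NC libraries. With shRNA2 it stood at 0.761, 0.676 and 0.665 CPM, within the NC range, and with shRNA3 at 0.519, 0.364 and 2.33 CPM, where library 3 alone was above NC. CXCL2 was 4.51-fold higher with shRNA1 (log2 fold change 2.17, SE 0.69, adjusted p 0.0190). That call was lost without NC library 1 (adjusted p 0.0648) or without shRNA1 library 3 (0.0762). The log2 fold change was -0.33 with shRNA2 (adjusted p 0.725) and 0.33 with shRNA3 (0.715). With shRNA3 it was -0.99 (adjusted p 0.190) without library 3 and 1.42 (0.0688) with library 3 alone, and with neither set was it called.

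CXCL3 (ENSG00000163734, chr4:74036589-74038807, minus strand) was low in all libraries. It stood at 1.77, 1.43 and 1.62 CPM in NC, 0.547, 1.31 and 1.45 CPM with shRNA1, 0.410, 0.507 and 0.776 CPM with shRNA2, and 0.222, 0.656 and 0.894 CPM with shRNA3. The shRNA2 and shRNA3 libraries lay below the NC libraries, and 1 of the shRNA1 libraries overlapped them. CXCL3 was 2.82-fold lower with shRNA2 (adjusted p 0.0272) and 2.64-fold lower with shRNA3 (0.0361), and its log2 fold change with shRNA1 was -0.54 (0.355). Both calls were lost without the filter on low counts (adjusted p 0.0555 and 0.0686) and when any of the 3 NC libraries was left out (0.0501 to 0.0908). The shRNA2 call was lost without shRNA2 library 1 or 2 (0.101 and 0.0862), and the shRNA3 call without shRNA3 library 1 (0.123) or library 2 (0.0730). With shRNA3 the log2 fold change was -1.85 (adjusted p 0.00871) without library 3 and -0.81 with library 3 alone.

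CXCL1, CXCL2 and CXCL3 are similar in sequence, and how the authors' counting treated reads that could match more than 1 of them is not given in the sources used here, so the split among them is uncertain. All their deposited values were whole numbers. Their summed level was 8.58, 12.4 and 9.44 CPM in NC, 3.28, 4.41 and 7.64 CPM with shRNA1, 1.17, 1.18 and 1.44 CPM with shRNA2, and 0.742, 1.02 and 3.23 CPM with shRNA3, so all 9 hairpin libraries were below NC. The sum had a log2 fold change of -0.99 (SE 0.47, adjusted p 0.0921) with shRNA1, -2.99 (SE 0.52, 0.000507) with shRNA2 and -2.56 (SE 0.50, 0.00125) with shRNA3. CXCL2 made up the larger share of what was left with shRNA1. CXCL5 and CXCL6, which lie in the same cluster within 124.4 and 20.3 kb of CXCL1, did not pass the filter.

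CCL20 (ENSG00000115009, chr2:227805739-227817564, plus strand) was lower with every hairpin. It stood at 4.14, 4.14 and 2.84 CPM in NC, 0.298, 0.678 and 0.465 CPM with shRNA1, 0.234, 0.169 and 0.166 CPM with shRNA2, and 0.816, 0.437 and 0.149 CPM with shRNA3. No hairpin library reached the lowest NC library. The level was 7.61-fold lower with shRNA1 (log2 fold change -2.93, SE 0.50, adjusted p 0.000470), 18.9-fold lower with shRNA2 (-4.24, SE 0.57, 8.32e-05) and 8.14-fold lower with shRNA3 (-3.03, SE 0.52, 0.000509). CCL20 had 4, 3 and 3 counts with shRNA2, close to the limit of 3 counts, so the size of that fold is uncertain. With shRNA3 the log2 fold change was -2.56 without library 3 and -4.55 with library 3 alone, which held 3 counts.

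IL1A (ENSG00000115008, chr2:112773915-112784590, minus strand) encodes IL-1α, an alarmin that is active without cleavage. It stood at 60.9, 77.7 and 80.3 CPM in NC, 46.9, 63.5 and 43.6 CPM with shRNA1, 21.0, 20.7 and 20.1 CPM with shRNA2, and 76.7, 53.4 and 23.8 CPM with shRNA3. The shRNA2 libraries were all below NC, while 1 library each of shRNA1 and shRNA3 overlapped the NC range. IL1A was 3.54-fold lower with shRNA2 (log2 fold change -1.82, SE 0.34, adjusted p 0.000794). It was not called with shRNA1 (log2 fold change -0.51, adjusted p 0.203) or shRNA3 (-0.51, 0.207). Fitted on the NC and shRNA1 libraries only, it was called lower with shRNA1 (-0.51, adjusted p 0.0187). With shRNA3 the log2 fold change was -0.17 without library 3 (adjusted p 0.405) and -1.59 with library 3 alone (6.27e-05). It was also called with shRNA3 without library 1 (-0.86, adjusted p 0.0396) and when library totals replaced TMM scaling (-0.93, 0.0142).

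IL1B (ENSG00000125538, chr2:112829751-112836903, minus strand) encodes IL-1β, whose precursor is cleaved by caspase-1, and lies 45.2 kb from IL1A. It stood at 105, 116 and 120 CPM in NC, 66.8, 65.4 and 42.1 CPM with shRNA1, and 49.8, 49.6 and 48.2 CPM with shRNA2, so all 6 of those hairpin libraries were below NC. With shRNA3 it stood at 458, 378 and 37.8 CPM, so libraries 1 and 2 were above every other library and library 3 was below all of them. In the fit over all 12 libraries, where each gene has 1 estimate of its spread, no hairpin was called: the log2 fold change was -0.97 with shRNA1 (SE 0.60, adjusted p 0.189), -1.20 with shRNA2 (SE 0.60, 0.113) and 1.36 with shRNA3 (SE 0.60, 0.0759). Fitted on the libraries of the groups compared, IL1B was called lower with shRNA1 (-0.97, adjusted p 0.000469) and shRNA2 (-1.20, 9.18e-11). With shRNA3 it was called higher without library 3 (1.88, adjusted p 9.05e-08) and its log2 fold change with library 3 alone was -1.56 (7.19e-05, with no replicate of shRNA3), so the direction turned on which libraries were used. DESeq2's Wald test called it higher with all 3 libraries (1.36, adjusted p 0.0391).

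IL6 (ENSG00000136244, chr7:22725884-22732002, plus strand) was nearly absent with shRNA2 and shRNA3. It stood at 6.61, 7.19 and 3.70 CPM in NC, from 73 to 146 counts, and at 1.39, 2.08 and 2.22 CPM with shRNA1. With shRNA2 the libraries held 1, 2 and 1 counts, and with shRNA3 they held 2, 0 and 0 counts. The NC, shRNA1 and other hairpin libraries formed a descending order without overlap. IL6 was 3.07-fold lower with shRNA1 (log2 fold change -1.62, SE 0.47, adjusted p 0.0113), a call that was lost without NC library 2 (0.0529) or shRNA1 library 1 (0.0520). The ratio of NC to shRNA2 was 77.3 (95% counting interval 29.9 to 285) and that of NC to shRNA3 was 138 (38.1 to 1148), with adjusted p-values of 1.65e-05 and 1.53e-05. These intervals cover counting error only. The IL6 call with shRNA3 stood without library 3 (adjusted p 8.05e-07), and library 3 alone had 0 counts. The IL6 gene overlaps the opposite-strand genes STEAP1B and AC073072.1, and whether the counting was stranded is not given in the sources used here. Without strand, reads of such partners cannot be told apart.

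LIF (ENSG00000128342, chr22:30240447-30246851, minus strand) encodes leukaemia inhibitory factor, of the IL-6 family, and went a different way from IL6. It stood at 36.3, 38.8 and 41.0 CPM in NC, 43.5, 43.0 and 39.1 CPM with shRNA1, and 27.2, 25.5 and 24.4 CPM with shRNA2. With shRNA3 it stood at 140, 141 and 29.8 CPM, so libraries 1 and 2 were far above all others and library 3 was below NC. The shRNA1 libraries overlapped NC and the shRNA2 libraries were below it. LIF was 2.67-fold higher with shRNA3 (log2 fold change 1.42, SE 0.42, adjusted p 0.0135), 1.85 on the log2 scale without library 3 (5.50e-10) and -0.35 with library 3 alone (0.0574). Fitted on the NC and shRNA3 libraries only, the shRNA3 call was lost (adjusted p 0.0726). The log2 fold change was 0.11 with shRNA1 (adjusted p 0.831) and -0.59 with shRNA2 (0.253), and the latter was called when only the NC and shRNA2 libraries were fitted (7.75e-06). LIF overlaps the opposite-strand genes LIF-AS1 and AC004264.1, with the same limit as for IL6.

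CSF2 (ENSG00000164400, chr5:132073790-132076170, plus strand) was low in NC. It stood at 0.808, 0.689 and 0.507 CPM in NC, 2.84, 2.86 and 2.48 CPM with shRNA1, 0.820, 0.902 and 0.831 CPM with shRNA2, and 6.30, 10.6 and 0.993 CPM with shRNA3. All 9 hairpin libraries were above the NC libraries, those of shRNA2 and library 3 of shRNA3 by a small margin. CSF2 was 4.05-fold higher with shRNA1 (log2 fold change 2.02, SE 0.64, adjusted p 0.0185) and 8.81-fold higher with shRNA3 (3.14, SE 0.65, 0.00179). The shRNA1 call was lost without NC library 2 (adjusted p 0.0526) or NC library 3 (0.0664). The shRNA3 value rose to 3.65 without library 3 (adjusted p 7.67e-08) and was 0.60 (0.258) with library 3 alone, so it rested on libraries 1 and 2. The log2 fold change with shRNA2 was 0.35 (adjusted p 0.686). For the mean of the hairpins the log2 fold change was 1.83 (adjusted p 0.0154), with an adjusted p of 0.00658 with library 3 as the only shRNA3 library, and it was not called without NC library 2 (0.0519) or NC library 3 (0.0676).

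**Figure D4:**
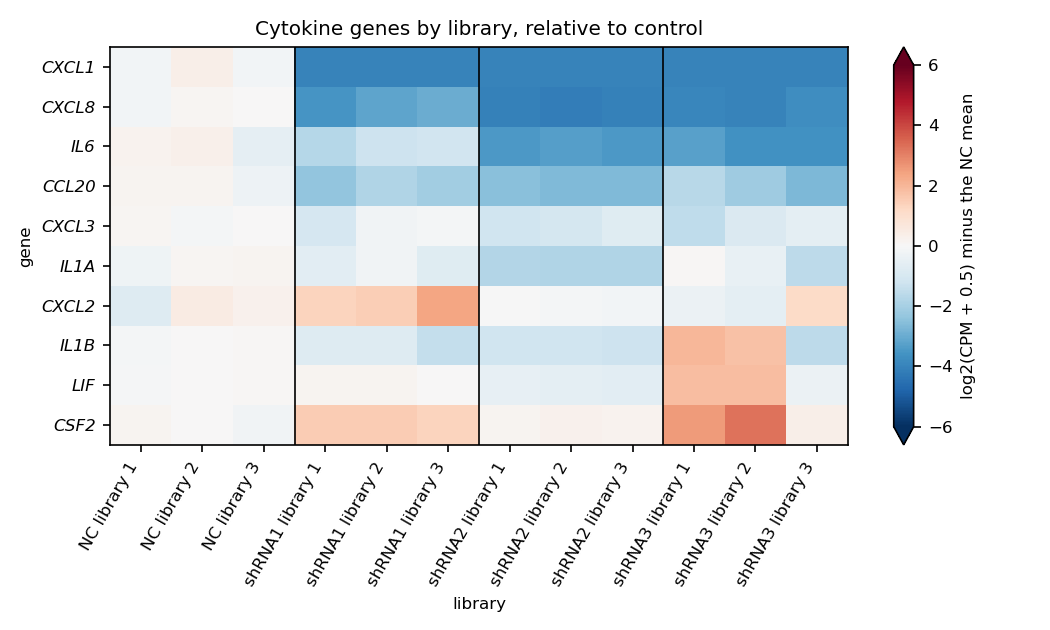
Log2(CPM + 0.5) of each gene minus its mean over the NC libraries (colour, blue below and red above NC) in each of the 12 libraries. CXCL1, CXCL8, IL6 and CCL20 are blue in all 9 hairpin libraries, while IL1B, LIF and CSF2 are red in shRNA3 libraries 1 and 2 and IL1B is blue in library 3.

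Levels can be set side by side between genes only per kilobase of exon. In NC, IL1B stood at 36.6 ± 2.55 CPM per kb (SD, n = 3) and IL1A at 34.3 ± 4.95, and these did not differ beyond their spread. CXCL8 followed at 13.5 ± 1.35, LIF at 9.75 ± 0.604 and CXCL1 at 5.89 ± 1.31 CPM per kb. IL6 at 2.82 ± 0.903 and CCL20 at 2.32 ± 0.470 CPM per kb lay within each other's spread, as did CSF2 at 0.849 ± 0.192, CXCL3 at 0.724 ± 0.0767 and CXCL2 at 0.588 ± 0.374. With shRNA1 the order changed: LIF stood at 10.6 ± 0.607, CSF2 at 3.46 ± 0.271 and CXCL2 at 2.67 ± 1.27 CPM per kb, all above CXCL8 at 1.27 ± 0.305. With shRNA2 IL1B at 15.9 ± 0.271, IL1A at 9.69 ± 0.231 and LIF at 6.47 ± 0.353 CPM per kb held the top of the order, and CSF2 at 1.08 ± 0.0567 lay above CXCL8 at 0.591 ± 0.0395. These are levels and not differences.

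Some members differed between hairpins, and the share of all tested genes is given for each pair. Between shRNA1 and shRNA2, 12.3% of all tested genes differed, and so did CXCL2, CXCL8, IL1A and IL6, all higher with shRNA1. Their log2 differences were 2.51, 1.10, 1.32 and 4.53, with adjusted p-values of 0.0424, 0.0147, 0.0268 and 0.00299. Between shRNA1 and shRNA3, 30.0% of all tested genes differed, and so did CXCL8 and IL6, which were higher with shRNA1, and IL1B and LIF, which were lower. Between shRNA2 and shRNA3, 8.40% of all tested genes differed, and so did IL1A, IL1B, CSF2 and LIF, all lower with shRNA2. Of these 12 calls, 10 were lost when some single library was left out, and the differences of IL1B and LIF between shRNA1 and shRNA3 changed sign with library 3 as the only shRNA3 library (0.60 and 0.47, adjusted p 0.106 and 0.0654). The IL6 calls stood in all leave-one-out fits, and the call between shRNA1 and shRNA3 was lost when only those 6 libraries were fitted (adjusted p 0.117).

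For the 3 members with the highest mean CPM, the tested genes with the most similar pattern over the 12 libraries were found by the root mean square difference of log2(CPM + 0.5), each gene centred on its own mean. For IL1B these were GPC2 (0.25) and ACSS2 (0.25), for LIF they were JUNB (0.15) and BCL2L1 (0.18), and for IL1A they were RND3 (0.23) and DNAJB9 (0.25). Among the members, the closest pairs were CXCL1 with CXCL8 (0.38), IL1B with LIF (0.51) and CSF2 with LIF (0.53). CXCL1 and CXCL2 stood at 2.16. With 0 counts of CXCL1 in all 9 hairpin libraries, its value there is set by the added 0.5, and so are its distances in part. The 12 libraries share depth and hairpin, so the distances describe these libraries and carry no test.

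Of 11 receptor genes for the members, 8 were tested and CXCR1, CCR6 and CSF2RB did not pass the filter. With each of the 3 hairpins, 2 were lower (IL1R1 and CXCR2) and 2 were higher (IL6R and CSF2RA), both near the shares of all tested genes (19.7% lower and 16.0% higher with each hairpin). IL1R1, the signalling receptor of both IL-1 cytokines, stood at 19.4 ± 1.16 CPM in NC and 0.218 ± 0.0838 CPM with shRNA1, where it was 86.6-fold lower (adjusted p 1.97e-05). The shRNA1 libraries held 3 to 6 counts of IL1R1, so the size of that fold is uncertain. The highest IL1R1 level in any shRNA2 or shRNA3 library was 0.248 CPM. CXCR2, named after its values were seen, had 23 to 48 counts in the NC libraries and at most 3 in any hairpin library. CSF2RA, the ligand-binding chain of the GM-CSF receptor, went from 0.0676 CPM in NC to 4.29, 3.43 and 3.77 CPM with shRNA1, shRNA2 and shRNA3. IL6R was 2.92-fold higher with shRNA1, 1.48-fold with shRNA2 and 1.61-fold with shRNA3, and the shRNA2 call was lost with DESeq2's Wald test (adjusted p 0.0669), without TMM and when any of the 6 libraries compared was left out. The IL6R call with shRNA3 was lost without TMM (adjusted p 0.268), NC library 2 (0.0561) or NC library 3 (0.0756). IL6ST, which encodes gp130, was 3.34-fold lower with shRNA2 (adjusted p 0.00654) and 4.84-fold lower with shRNA3 (0.00144), with a log2 fold change of -0.36 with shRNA1 (0.504). The last was called when only the NC and shRNA1 libraries were fitted (adjusted p 0.0328). LIFR was 1.92-fold higher with shRNA1 (adjusted p 0.000901), with log2 fold changes of 0.40 (0.0781) and 0.16 (0.463) with shRNA2 and shRNA3. With shRNA2 LIFR was called when only the NC and shRNA2 libraries were fitted (adjusted p 0.000472). Over the 8 receptors the median log2 fold change was 0.19, -0.67 and -0.31 with shRNA1, shRNA2 and shRNA3.

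Among 12 genes for restraint, processing or signalling of IL-1 and IL-6 family cytokines, 11 were tested. With each hairpin 5 were lower and 1 was higher (CAPN2, a calpain subunit, by 1.35- to 1.50-fold). CAPN2 was not called with shRNA3 without TMM, NC library 1 or NC library 3. Among all tested genes 19.7% were lower and 16.0% higher with each hairpin. The 5 were PYCARD, GSDMD, IL18BP, CAPN1 and STAT3. PYCARD, the inflammasome adaptor that brings caspase-1 to its sensors, went from 27.8 CPM in NC to 0.494, 0.130 and 0.0243 CPM with shRNA1, shRNA2 and shRNA3. GSDMD, which encodes the pore through which mature IL-1β leaves the cell, was 6.44-, 5.65- and 7.41-fold lower. IL1RN, the IL-1 receptor antagonist, stood at 3.84 to 4.70 CPM in NC, 0.568 to 1.07 CPM with shRNA1 and 1.88 to 2.09 CPM with shRNA2. With shRNA3 it ranged from 1.79 to 9.12 CPM. It was 5.16-fold lower with shRNA1 (adjusted p 0.00244) and not called with shRNA2 (-1.13 on the log2 scale, 0.0749) or shRNA3 (0.60, 0.307). Fitted on the NC and shRNA2 libraries only, it was called lower with shRNA2 (-1.12, adjusted p 0.000178). With shRNA3 its log2 fold change was 1.06 (0.000983) without library 3 and -1.23 with library 3 alone. For the 11 genes the median was -1.40, -1.31 and -0.52 on the log2 scale with shRNA1, shRNA2 and shRNA3.

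All 16 genes for NF-κB subunits, inhibitors and kinases were tested, and 6 were lower and 2 higher with each hairpin, beside 19.7% lower and 16.0% higher among all tested genes. RELA, the main activating subunit, averaged 165, 96.2 and 132 CPM with shRNA1, shRNA2 and shRNA3, beside 211 CPM in NC. It was 2.20-fold lower with shRNA2 (adjusted p 0.000156) and 1.60-fold lower with shRNA3 (0.00439), with a log2 fold change of -0.36 with shRNA1 (0.0791). RELB was 2.41-, 4.52- and 3.03-fold lower, and NFKB1, which encodes the p105 precursor of p50, was 3.48-, 3.63- and 2.38-fold higher. Of the inhibitors that NF-κB itself induces, TNFAIP3 stood at 117 CPM in NC and was 1.69-fold lower with shRNA1 (adjusted p 0.0274), 5.87-fold lower with shRNA2 (1.87e-05) and 2.51-fold lower with shRNA3 (0.00141). The TNFAIP3 call with shRNA1 was lost without any 1 of 5 of the 6 libraries compared. NFKBIA was lower with shRNA2 (1.72-fold, adjusted p 0.0116), with log2 fold changes of -0.13 (0.630) with shRNA1 and 0.27 (0.319) with shRNA3. NFKBIE and CYLD were lower and IKBKB was higher with each hairpin, by 1.64- to 3.02-fold, and IKBKB lost its shRNA3 call without TMM. Their median log2 fold change, over all 16, was -0.42, -1.12 and -0.64 with shRNA1, shRNA2 and shRNA3.

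All 18 genes close to the receptors of IL-1, Toll-like and TNF signalling were tested, and 5 were lower and 4 higher with each hairpin, shares near the 19.7% and 16.0% of all tested genes. TLR2, a sensor of bacterial lipoproteins, stood at 7.90 CPM in NC and had 0 counts with shRNA1, which is at least 52.7-fold lower, and at most 0.0408 CPM on average with the other hairpins. TLR5, the flagellin sensor, stood at 4.18 CPM in NC and was at least 24.6-fold lower with shRNA2, where it had 0 counts. The TNF receptor genes parted: TNFRSF1A was 3.07-, 2.90- and 2.81-fold higher, and TNFRSF1B was 23.4-, 33.0- and 38.8-fold lower. TNFRSF1B held 2 to 7 counts with shRNA1, 2 to 4 with shRNA2 and 0 to 4 with shRNA3, so its folds are uncertain. IRAK1, a kinase of the IL-1 receptor pathway, was 2.32- to 2.62-fold higher. Across the 18 genes the median log2 fold change was 0.25, -0.28 and -0.68 with shRNA1, shRNA2 and shRNA3.

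Messenger RNAs of several members carry AU-rich elements that proteins of the ZFP36 family bind to speed their decay. Of 10 genes for mRNA-binding regulators, all tested, 3 were higher with each hairpin and 0 lower, beside 16.0% and 19.7% of all tested genes. The list is not confined to proteins that speed decay, and holds for example ELAVL1, TIA1 and TIAL1. ZFP36L2 was 3.17-, 2.82- and 5.89-fold higher, HNRNPD was 2.06-, 3.71- and 2.58-fold higher, and KHSRP was 1.40- to 1.74-fold higher, with its shRNA2 and shRNA3 calls lost without TMM. ZFP36 itself stood at 51.9 to 59.3 CPM in NC, 22.1 to 27.9 CPM with shRNA1 and 45.1 to 50.7 CPM with shRNA2, and ranged from 35.4 to 324 CPM with shRNA3. It was called higher with shRNA3 (4.11-fold, adjusted p 0.00966), but not when only the NC and shRNA3 libraries were fitted (0.0634). With library 3 as the only shRNA3 library its log2 fold change was -0.61. Fitted on the libraries of the groups compared, ZFP36 was called lower with shRNA1 (-1.16, adjusted p 2.30e-05) and shRNA2 (-0.20, 0.0244). Across the 10 regulators the median log2 fold change was 0.34, 0.08 and 0.37 with shRNA1, shRNA2 and shRNA3.

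Of 41 other cytokine and chemokine genes, 28 were tested, and 10 were lower and 5 higher with each hairpin, beside 19.7% lower and 16.0% higher among all tested genes. TNF, which like the IL-1 cytokines activates NF-κB, stood at 16.4 to 28.5 CPM in NC, at most 0.298 CPM with shRNA1, at most 0.111 CPM with shRNA2 and between 0.0497 and 1.78 CPM with shRNA3. CCL2, a monocyte attractant, stood at 29.4 to 40.2 CPM in NC, had 0 counts in all shRNA2 libraries, which is at least 196-fold lower, and reached at most 0.371 CPM with shRNA3. CX3CL1, the membrane-bound chemokine fractalkine, stood at 94.4 CPM in NC and was 497-fold lower with shRNA1 and 399-fold lower with shRNA3. The libraries held 2 to 6 counts of CX3CL1 with shRNA1 and 1 to 6 with shRNA3, so the size of these folds is uncertain. CCL5, a T cell and monocyte attractant, went the other way, from 0.403 ± 0.138 CPM in NC to 25.1 ± 2.38 CPM with shRNA1, 7.33 ± 0.489 CPM with shRNA2 and 34.3 ± 9.10 CPM with shRNA3 (SD, n = 3). It was 61.6-, 18.0- and 83.8-fold higher, with adjusted p-values of 1.75e-07, 1.16e-06 and 1.09e-07. CCL26 was 10.7-fold higher with shRNA1 and 8.15-fold higher with shRNA2, and the alarmin IL33 was 14.9-, 3.64- and 41.5-fold higher, its shRNA2 call being lost without NC library 1 (adjusted p 0.115), NC library 2 (0.0852) or shRNA2 library 2 (0.168). In NC, CCL5 had 5 to 10 counts, CCL26 3 to 16 and IL33 1 to 5, so the size of their folds is uncertain too. The median log2 fold change of the 28 genes was -0.10, -1.47 and 0.36 with shRNA1, shRNA2 and shRNA3. The IL-36 genes, IL37 and CSF3 did not pass the filter.

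**Figure D5:**
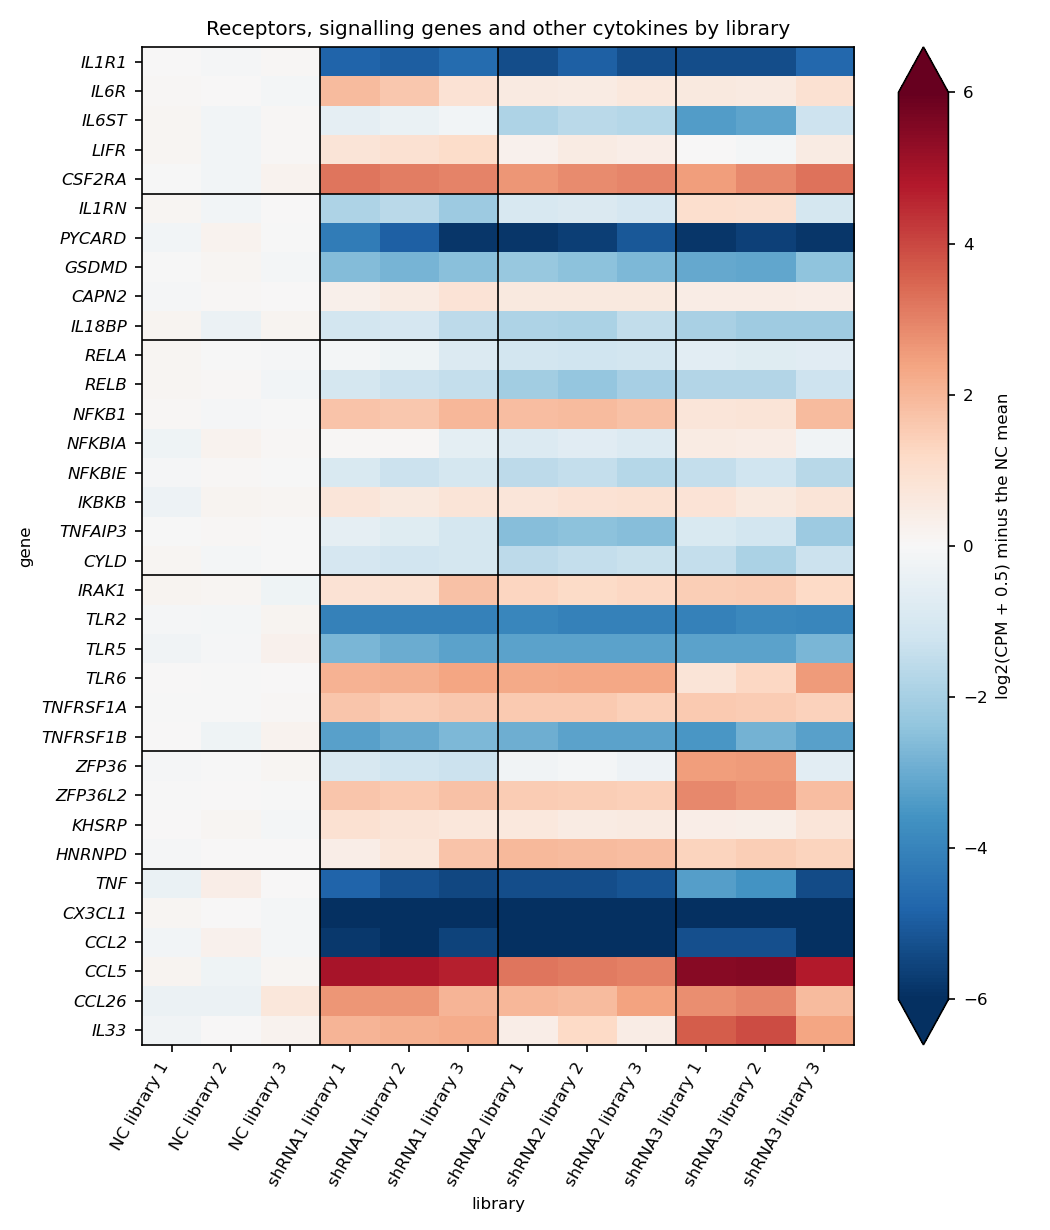
Log2(CPM + 0.5) minus the NC mean (colour) of the named receptor, restraint, NF-κB, receptor-proximal, mRNA decay and other cytokine genes (rows, separated by lines in that order) in each of the 12 libraries. IL1R1, PYCARD, TNF, CX3CL1 and CCL2 are deep blue in all hairpin libraries, CCL5 and CSF2RA are red in all of them, and ZFP36 and IL1RN are red in shRNA3 libraries 1 and 2 only.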

How the data were processed

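RNA of 12 SCC-15 libraries was sequenced. The authors deposited 1 table of estimated counts for every gene, made without scaling between libraries as far as its differing column totals show, and 13.8% of its values are not whole. HISAT2, HTSeq 0.11.2 and GRCh38 are named per the submitters' processing notes, and the annotation, filters and use of strand are not given in the sources used here. Groups come from the sample titles, and the number of table columns matched to no sample was 0.

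The deposited counts were rounded, scaled by TMM (factors 0.771 to 1.11) and filtered by filterByExpr (minimum count 10, minimum total 15). IDs that are not Ensembl genes took 0.0864% to 0.220% of the counts. One model of the 4 groups was fitted to all libraries with edgeR 4.0.16 (R 4.3.3, quasi-likelihood F test, two-sided, 8 residual degrees of freedom), with p-values adjusted by the Benjamini-Hochberg method over 17532 genes. The script was tested on simulated data. DESeq2 1.42.0 was an alternative. Replicates of a group were compared by chi-square, and none agreed within sampling noise. CPM values are TMM-scaled, and positions and exon lengths are from GENCODE release 29 on GRCh38. A fold against a group with 0 counts uses 3 counts per library and is a bound, and a ratio to a group with 1 to 3 counts per library at most has an exact 95% counting interval. Both cover counting error only.

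The members and gene lists were chosen with earlier results of these data known. Named were all members, 10 pathway genes listed by name, and from each list up to 3 rising and 3 falling genes called with every hairpin at a mean of at least 1 CPM, by the smallest of their 3 changes. The marker lists of leukocytes, fibroblasts, endothelium and squamous epithelium served as checks. Alternatives were other scalings, filters, thresholds and tests, a replicate block, and left-out libraries.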

Additional observations from a re-analysis of the deposited data

Results flagged for a closer look

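Some members differed between hairpins, by the test of that difference itself (edgeR's quasi-likelihood test, Benjamini-Hochberg adjustment). Of all tested genes, 12.3% differed between shRNA1 and shRNA2, 30.0% between shRNA1 and shRNA3 and 8.40% between shRNA2 and shRNA3. Between shRNA1 and shRNA2 the log2 difference was 2.51 for CXCL2, 1.10 for CXCL8, 1.32 for IL1A and 4.53 for IL6, all higher with shRNA1 and with no overlap between the libraries. Between shRNA1 and shRNA3 it was 0.81 for CXCL8 and 5.25 for IL6, higher with shRNA1, and -2.33 for IL1B and -1.30 for LIF, lower with shRNA1. Between shRNA2 and shRNA3 it was -1.31 for IL1A, -2.57 for IL1B, -2.79 for CSF2 and -2.01 for LIF, all lower with shRNA2. With library 3 as the only shRNA3 library, and so no replicate of that group, the differences from shRNA3 were 0.59 for CXCL8, 0.60 for IL1B and 0.47 for LIF with shRNA1, and -0.22 for IL1A, 0.37 for IL1B, -0.23 for CSF2 and -0.23 for LIF with shRNA2, none of them called, while IL6 remained higher with shRNA1 (adjusted p 0.00253). Beside the fitted IL6 values, the ratio of shRNA1 to shRNA2 was 25.1 (95% counting interval 9.53 to 93.6). That of shRNA1 to shRNA3 was 44.9 (12.1 to 375). The CXCL2 call between shRNA1 and shRNA2 was lost with the replicate block (adjusted p 0.0502) and without TMM (0.0609). It was also lost when any library of either group was left out. The CXCL8 and IL1A calls between these groups were lost when any shRNA2 library was left out, and the IL6 call stood.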

How the results depend on the processing

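CXCL1, CXCL8, IL6 and CCL20 kept their direction against NC under every setting run that tested them, and were called with each hairpin except IL6 with shRNA1 at an adjusted p under 0.01 and without NC library 2 or shRNA1 library 1. Of the 52 member fold changes and differences, DESeq2 size factors changed 0 calls, DESeq2's Wald test 1, library totals without TMM 5 and the replicate block 6. No shared effect of the titles' numbers was seen: same-numbered libraries' deviations correlated at a mean of -0.00857 (18 pairs). For libraries of different numbers the mean was 0.00362 (36 pairs). With 3 libraries a group, these values cannot settle whether the libraries were paired. With the replicate block, members called between shRNA2 and shRNA3 went from 4 to 0. That count was also 0 at an adjusted p under 0.01 and with only the libraries compared, and 2 without TMM. With 1 library left out it was 5 without shRNA3 library 3, beside 59.2% of all genes tested there, and 0 in the others. Between shRNA1 and shRNA3 it went from 4 to 1 (adjusted p under 0.01), 1 (no filter), 0 (only the libraries compared) and 1 to 6 with 1 library left out. The 6 came without shRNA3 library 3, beside 63.4% of all genes tested there. Between shRNA1 and shRNA2 it went from 4 to 1 (adjusted p under 0.01) and 1 to 3 with 1 library left out. With shRNA1 against NC it went from 6 to 3 at an adjusted p under 0.01. A mean of at least 50 counts keeps only 4 members (CXCL8, IL1A, IL1B and LIF), so its counts were 1 with shRNA1, 2 with shRNA2, 2 with shRNA3, 2 for the hairpins' mean, 2 between shRNA1 and shRNA2, and 1 lower with each hairpin. A stricter threshold lowers counts by construction, and the cause of the other changes was not tested. With library 3 as the only shRNA3 library the values themselves moved, that of CSF2 with shRNA3 from 3.14 to 0.60 and that of LIF between shRNA2 and shRNA3 from -2.01 to -0.23.

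Signs turned for CXCL2 with shRNA2 without NC library 2 (0.0925, range over left-out libraries -0.76 to 0.0925) and with shRNA3 without NC library 1 (-0.11) or shRNA3 library 3 (-0.99, range -0.99 to 0.77). With library 3 as the only shRNA3 library they turned for IL1B (-1.56), LIF (-0.35, hairpins' mean -0.26), IL1RN (-1.23), ZFP36 (-0.61) and NFKBIA (-0.19), and for IL1B (0.60) and LIF (0.47) between shRNA1 and shRNA3 and IL1B (0.37) between shRNA2 and shRNA3. NFKBIA turned with shRNA1 without library 3 (0.055, range -0.24 to 0.055) and with shRNA3 without TMM (-0.11), and LIFR with shRNA3 without TMM (-0.13) or library 3 (-0.0562, range -0.0562 to 0.33). Without library 3 or with it alone, 73.1% and 56.9% of all genes tested were called with shRNA3. Depth limits CXCL1, IL6 and FMOD, where 0 to 3 counts set the bounds. It also limits other folds that rest on few counts. Examples are CCL20 with shRNA2, IL1R1, TNFRSF1B, CX3CL1 and CCL2 in hairpin libraries, and IL33 in NC.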
